A study of Mus musculus with 9 samples.

Results

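Macrophage nuclei were examined in a single-nucleus RNA survey of mouse ventricles, in which 178 of 21770 eligible nuclei were taken as macrophage nuclei. The nuclei came from 9 libraries in 3 groups of 3. KO P10 libraries were ERRalphaKO/ERRgammaKO hearts at postnatal day 9-10, control P10 libraries were ERRalphaHet/ERRgammaWT hearts at postnatal day 9-10, and control P6 libraries were ERRalphaHet/ERRgammaWT hearts at postnatal day 6. By their label the controls are themselves heterozygous for ERRalpha, and all mice were C57BL6/J. The labels record sex as not determined, do not name a Cre driver, do not say which ventricles were used fresh and which frozen, and do not say whether the libraries of a group came from different animals, so p-values measure the spread between libraries, which may be technical.

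Cardiac macrophages are tissue-resident phagocytes that clear dying cells and debris, take up iron and lipid, and shape vessel and muscle growth. In the neonatal heart they descend largely from yolk sac and fetal precursors and are marked by the mannose receptor Mrc1, the colony-stimulating factor 1 receptor Csf1r and complement C1q, while recruited monocytes carry the chemokine receptor Ccr2. ERRalpha and ERRgamma, encoded by Esrra and Esrrg, are orphan nuclear receptors that drive genes of oxidative metabolism in heart muscle.

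A barcode was eligible with at least 500 unique molecular identifiers (UMIs, single counted transcripts) outside mitochondrial genes and at least 1.5% of UMIs from the nuclear RNA Malat1. It was taken as a macrophage nucleus with at least 3 UMIs over F13a1, Mrc1, Csf1r, Adgre1, Ptprc, Cd163, Dock2 and Cx3cr1 and at most 3 UMIs over the fibroblast and endothelial genes Col1a2, Col3a1, Pdgfra, Abca8a, Flt1, Kdr and Nrg1. These 15 genes and Malat1 chose the nuclei, so their values are a description and were not tested. Of the 178 nuclei, 56 stood at exactly 3 marker UMIs, and 163 nuclei within the same exclusion limit stood just outside at 2. At the other threshold, 32 members had 3 exclusion UMIs and 21 barcodes with enough marker UMIs stood just outside at 4. The exclusion limit removed 137 barcodes with 3 or more marker UMIs, which were 58 from KO P10, 73 from control P10 and 6 from control P6 libraries.

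The libraries held 2608067 to 5769630 UMIs over 33000 barcodes, of which 26639 reached 500 UMIs and 4869 of those were poor in Malat1. Mitochondrial UMIs made up 0.888% to 40.8% of a library, with the highest share in control P10 library 1. KO P10 library 2 held 464 barcodes that also occur in KO P10 library 1, and these were left out. Up to 12 barcodes were shared in 24 of the 35 other pairs of libraries, and 0 macrophage nuclei were. A doublet score placed 7 of the 178 nuclei in the highest 5% of their library, and they were kept. Macrophage nuclei had a median of 792.5 UMIs (range 513 to 5761), with library medians of 597 to 902 against 740 to 953 for the other nuclei. Their summed counts came to 46417 UMIs in KO P10, 110083 in control P10 and 42018 in control P6 libraries, and to between 6485 and 50156 in a single library, which leaves most genes with a handful of UMIs per library.

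Among the genes of the selection, Mrc1 was found in 75.0%, 76.7% and 77.3% of the macrophage nuclei of KO P10, control P10 and control P6, against 3.19% of all other nuclei. F13a1, which encodes the A subunit of coagulation factor XIII, was found in 75.0% of KO P10 nuclei, 66.7% of control P10 nuclei and 27.3% of control P6 nuclei, against 2.32% of other nuclei. By library F13a1 was found in 43.8%, 93.3% and 92.3% of KO P10 nuclei, 58.3%, 59.5% and 75.6% of control P10 nuclei and, in control P6, 6 of 13, 2 of 23 and 4 of 8 nuclei. The pooled control P6 value is thus pulled down by control P6 library 2, which holds 23 of the 44 nuclei, and control P6 libraries 1 and 3 lie above KO P10 library 1. F13a1 supplied 34.8%, 32.3% and 11.4% of all marker UMIs in the 3 groups. Csf1r supplied 6.96%, 8.95% and 13.4%, and the fractalkine receptor gene Cx3cr1 supplied 3.48%, 7.64% and 8.13%. The hemoglobin scavenger receptor Cd163 gave only 5, 6 and 1 UMIs. Over all libraries the 8 markers gave 934 UMIs, with a median of 5 per nucleus, and 8 nuclei met the threshold through a single gene.

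Macrophage genes outside the selection followed the number of marker UMIs. A list of 20 other macrophage markers, which includes the C1q genes, Lyz2, Stab1, Pf4 and Cd68, made up 0.0213% of UMIs in nuclei with 0 marker UMIs, 0.102% in those with 2, 0.194% in those with 3, 0.434% in those with 4 and 0.509% in those with 5 or more, all within the exclusion limit. At least 1 such UMI was seen in 71.4% of nuclei at 3 marker UMIs (95% exact interval 57.8% to 82.7%) and in 93.4% of nuclei at 5 or more (86.2% to 97.5%), against 17.7% of nuclei at 0 (17.0% to 18.4%). These intervals cover counting error only. At 3 marker UMIs the list made up 0.169% in KO P10, 0.156% in control P10 and 0.511% in control P6. The control P6 value rests on 9 nuclei with 6453 UMIs, of which 1, 6 and 2 came from libraries 1, 2 and 3.

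**Figure D1:**
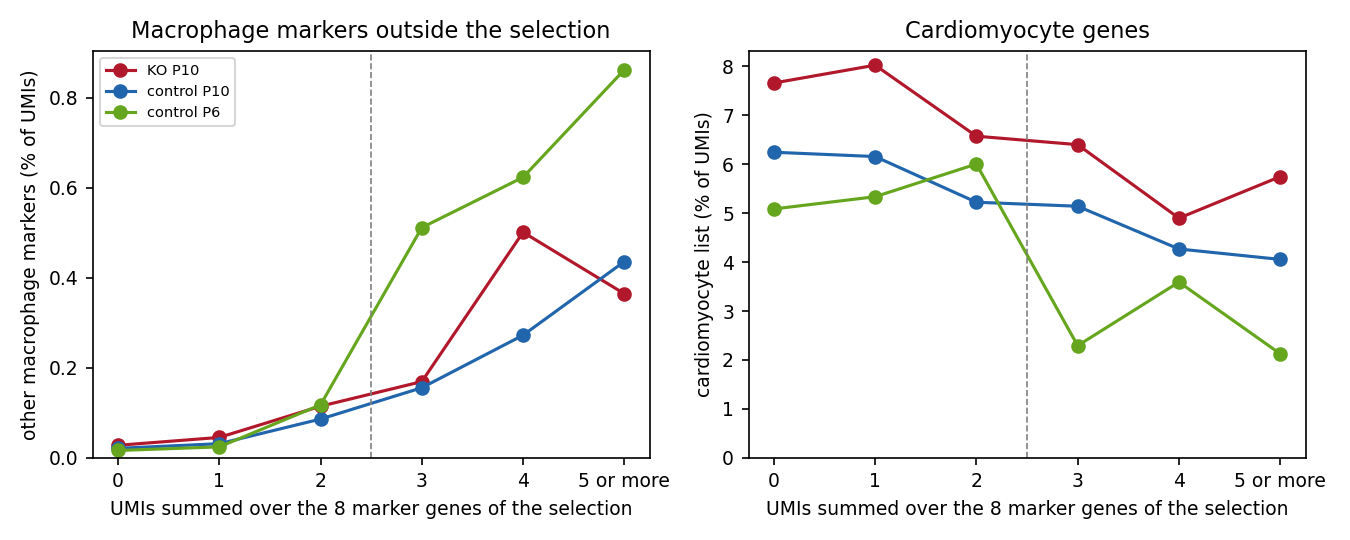
Percent of UMIs from 20 macrophage markers outside the selection (left) and from 16 cardiomyocyte genes (right), in nuclei grouped by their marker UMIs, for KO P10, control P10 and control P6; the dashed line is the selection threshold. The macrophage markers climb to 0.365%, 0.436% and 0.862% at 5 or more marker UMIs, while cardiomyocyte genes remain at 5.75%, 4.06% and 2.13%.

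Cardiomyocyte transcripts were nevertheless abundant in the macrophage nuclei. A list of 16 cardiomyocyte genes, among them Ttn, Ryr2 and Nppa, made up 4.84%, 8.27% and 4.98% of UMIs in the macrophage nuclei of KO P10 libraries 1, 2 and 3. It made up 5.29%, 3.39% and 5.09% in control P10 and 2.75%, 2.87% and 2.04% in control P6. The control P6 libraries were the lowest and did not overlap the other groups. In the other nuclei of the same libraries the list made up 4.02% to 8.54% of UMIs. The list's share in macrophage nuclei lay below that in the other nuclei of the same library in each of the 9 libraries. The titin gene Ttn had a UMI in 90.4% of macrophage nuclei and 92.8% of other nuclei. The part of heart muscle RNA in the group differences below was not tested.

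The nuclei were nevertheless rich in macrophage genes that the selection did not use. Of the 20 other markers 19 occur in the files, and their mean level in macrophage nuclei was 4.17 to 81.3 times that in other nuclei, with a median of 19.9. Levels are given as CPM, a gene's UMIs scaled to a common library total. Since the nuclei were selected on linked genes, these folds are a description. Among 634 genes with 50 or more UMIs, the 20 with the highest fold ran from 15.9 to 54.8, and 14 of these 20 were higher than in other nuclei in each of the 9 libraries. The first was Cd84, a leukocyte receptor of the SLAM family, found in 24.2% of macrophage nuclei and 0.709% of other nuclei. It was followed by the costimulatory ligand Cd86 (47.1-fold), the prostaglandin D synthase Hpgds (46.4-fold), the unconventional myosin Myo1f (37.6-fold), the uncharacterised Gm26740 (35.3-fold) and Aoah, which deacylates bacterial lipopolysaccharide (31.3-fold).

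Several of these genes belong to the scavenging and digesting side of macrophage biology. Stab1, a scavenger receptor, was found in 43.8% of macrophage nuclei and 4.16% of other nuclei. Dab2, an endocytic adaptor, was found in 53.9% against 7.24%, and the endosomal sodium-proton exchanger Slc9a9 in 57.9% against 5.15%. Lyz2, the lysozyme of myeloid cells, was found in 28.1% against 2.51%, and Ctsc, the lysosomal dipeptidyl peptidase cathepsin C, was 21.3-fold higher. Complement C1qb and C1qc were 19.9-fold and 24.9-fold higher and the chemokine gene Pf4 was 19.3-fold higher. Among regulators, the bZIP factor Maf was found in 40.4% of macrophage nuclei and 3.20% of other nuclei and Runx1 was 17.9-fold higher. The myeloid master regulator Spi1 gave only 12 UMIs, at 27.9-fold.

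Other features of macrophage state were thinly covered. The resident markers Timd4, Lyve1 and Folr2 gave 6, 19 and 4 UMIs, and the monocyte receptor Ccr2 gave 17 UMIs in 8 nuclei. The antigen presentation genes Cd74 and H2-Aa gave 4 UMIs each, and a list of monocyte and antigen presentation genes was found in 12.9% of macrophage nuclei against 15.2% of other nuclei. At 3 or more UMIs of that list the shares were 2.81% (5 nuclei) and 1.48%. The 5 nuclei were 3 of 44 in control P6, with up to 18 UMIs, 1 of 90 in control P10 and 1 of 44 in KO P10. Among 25 cytokine, chemokine and NF-kB genes, 11 had 0 UMIs over the 178 nuclei, namely Il1a, Tnf, Il6, Il10, Ccl3, Ccl4, Ccl8, Cxcl1, Cxcl10, Ptgs2 and Socs3, and the list gave 151 UMIs in all. A count of 0 still allows up to 3 UMIs among the 198518 of all macrophage nuclei, so these genes were not detectable at this depth. The lipid genes Cd36 and Lpl stood at 0.994 and 0.832 times the level of other nuclei, whereas Apoe, a lipid carrier that macrophages make, was 7.62-fold higher.

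Markers of other leukocytes were checked in the same nuclei. T and NK lymphocyte genes were found in 3.37% of macrophage nuclei and 3.95% of other nuclei, and 2 macrophage nuclei had 3 or more such UMIs. Of these 2, 1 in control P10 library 1 had 12 such UMIs and 1 in control P6 had 5, and both were kept. Mast cell genes were found in 22.5% against 4.06%, and 51 of their 54 UMIs came from Hpgds, with Cpa3, Tpsb2, Tpsab1, Fcer1a, Ms4a2, Hdc, Mcpt4 and Gata2 at 0. B lymphocyte genes were found in 20.8% against 2.86%, and 42 of their 51 UMIs came from Bank1, with the B cell receptor components Cd79a and Cd79b at 0. Neutrophil genes gave 8 UMIs in 8 nuclei and dendritic cell genes gave 21 UMIs in 19 nuclei.

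Macrophage nuclei made up 0.840% (95% exact interval 0.481% to 1.36%), 0.585% (0.328% to 0.963%) and 0.516% (0.275% to 0.881%) of eligible nuclei in KO P10 libraries 1, 2 and 3. They made up 0.780% (0.404% to 1.36%), 1.07% (0.754% to 1.47%) and 1.2% (0.861% to 1.62%) in control P10 libraries. In control P6 libraries they made up 0.724% (0.386% to 1.23%), 0.980% (0.622% to 1.47%) and 0.361% (0.156% to 0.709%). KO P10 library 1 lay above the lowest control P10 library, so the groups overlapped.

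The mean share was 0.647% ± 0.171 in KO P10 and 1.02% ± 0.214 in control P10 (SD, n = 3 each), a difference of -0.368 percentage points that did not pass a two-sided exact permutation test (p = 0.2). The mean was 1.02% ± 0.214 in control P10 and 0.688% ± 0.311 in control P6 (SD, n = 3 each), a difference of 0.328 percentage points that also did not pass (exact permutation p = 0.2). With 3 libraries against 3 the smallest p possible is 0.1. When every nucleus was thinned to 500 UMIs before selection, the means came to 0.447% ± 0.0857 in KO P10, 0.523% ± 0.228 in control P10 and 0.437% ± 0.163 in control P6 (SD, n = 3 each). The differences then came to -0.0759 percentage points for KO P10 against control P10 and 0.0851 for control P10 against control P6 (exact permutation p = 0.6 for both, n = 3 each). A share of this kind depends on how many macrophages the tissue held, on how much marker RNA each nucleus carried and on the exclusion limit. These cannot be told apart here. The limit removed 58, 73 and 6 barcodes with 3 or more marker UMIs in KO P10, control P10 and control P6, beside 44, 90 and 44 kept. A looser limit was not tried. The Malat1 threshold took 3074, 1149 and 646 barcodes of these groups out of the eligible nuclei.

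**Figure D2:**
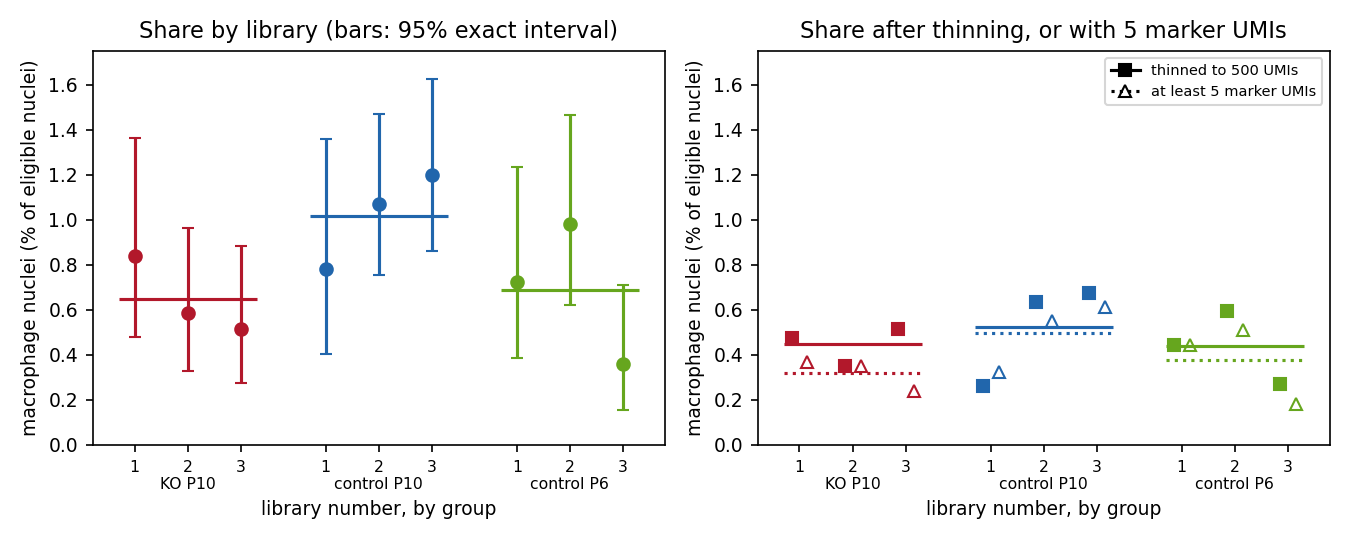
Macrophage nuclei as a percent of eligible nuclei in each library (left, with 95% exact intervals) and after thinning each nucleus to 500 UMIs or with a minimum of 5 marker UMIs (right); horizontal lines are group means. The groups overlap, with means of 0.647% in KO P10, 1.02% in control P10 and 0.688% in control P6.

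Of the deleted genes, Esrra was barely measurable in these nuclei, while Esrrg could be tested. Esrra gave 1, 0 and 0 UMIs in the macrophage nuclei of KO P10, 0, 2 and 1 in control P10 and 3, 0 and 0 in control P6. The same libraries separated clearly in their other nuclei, where Esrra stood at 8.80, 15.7 and 12.1 CPM in KO P10 and at 68.5, 76.5 and 56.6 CPM in control P10. Esrrg gave 16, 4 and 2 UMIs in the macrophage nuclei of KO P10 and 21, 20 and 52 in control P10, or 421 ± 362 and 881 ± 344 CPM (SD, n = 3 each). Its log2 fold change was -0.78 ± 0.56 (SE) and did not pass edgeR's quasi-likelihood test (adjusted p = 0.801). The part of heart muscle RNA in these Esrrg UMIs was not tested.

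The comparison of KO P10 with control P10 macrophage nuclei follows the genotype label of the hearts. Loss of both receptors in the macrophage nuclei themselves was not shown. The natriuretic peptide gene Nppa was higher in KO P10 and was the single gene of 233 tested to pass. The percent called was 0.429% for higher and 0% for lower genes, and 15 genes (6.44%) had an unadjusted p under 0.05. Nppa encodes atrial natriuretic peptide, which heart muscle makes under load, and lies on chromosome 4 at 148000722-148002079 on the plus strand (GRCm38). It gave 20, 289 and 117 UMIs in the macrophage nuclei of KO P10 libraries 1, 2 and 3, and 0, 17 and 4 in control P10. The 3 KO P10 libraries were all above the control P10 libraries, at 1045, 18610.3 and 9959 CPM against 0, 413 and 79.8 CPM. The log2 fold change was 5.85 ± 1.04 (SE, adjusted p = 0.00175 by edgeR's quasi-likelihood test). The adjusted p was 0.0820 by DESeq2 and 0.0549 in edgeR without control P10 library 1. The count of 1 gene became 0 without control P10 library 1, 2 without control P10 library 2, 7 without KO P10 library 1 and 4 without KO P10 library 3.

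Nppa differed in the same way in the rest of the nuclei. Other nuclei of KO P10 libraries held 2985, 17875 and 12198 CPM, against 75.1, 697 and 98.8 CPM in control P10. The libraries kept their order in both classes, and a UMI was found in 84.1% of KO P10 macrophage nuclei and 94.7% of other KO P10 nuclei, against 17.8% and 17.9% in control P10. A test of whether the genotype effect in macrophage nuclei differs from that in the other nuclei of the same libraries called 0 of 11658 genes by edgeR (0%), with 385 (3.3%) at an unadjusted p under 0.05. A genotype difference particular to macrophage nuclei was not detectable at this depth.

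The genes next to Nppa by p-value did not pass. Hbb-bs, a beta-globin gene of red cells, had a log2 fold change of 2.13 ± 0.61 (SE, edgeR adjusted p = 0.11), with 2612, 12815 and 2979 CPM in KO P10 and 1119, 2211 and 1216 CPM in control P10. In the other nuclei of those libraries Hbb-bs stood at 2401, 10837 and 2680 CPM and at 1476, 2257 and 1492 CPM, close to the macrophage values in each. The erythroid list as a whole made up 0.402%, 1.69% and 0.451% of macrophage UMIs in KO P10, against 0.133%, 0.328% and 0.154% in control P10. Gnas, which encodes a stimulatory G protein subunit, and the chaperone gene Hsp90ab1 had log2 fold changes of 1.70 ± 0.48 and 1.69 ± 0.48 (SE, edgeR adjusted p = 0.11 for both). Ankrd1, a stress-induced muscle ankyrin repeat gene, had 1.53 ± 0.49 (adjusted p = 0.199).

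Among the genes with lower values in KO P10, the receptor phosphatase gene Ptprj stood in macrophage nuclei at 5.33 times its level in other nuclei. Ptprj stood at 157, 129 and 85.1 CPM in KO P10 and 373, 632 and 319 CPM in control P10, with a log2 fold change of -1.63 ± 0.74 that did not pass (SE, edgeR adjusted p = 0.644). The groups of Ptprj values did not overlap, but the KO P10 libraries rest on 3, 2 and 1 UMIs. The uncharacterised Gm37376 (-1.77), the cardiac ankyrin Ank2 (-1.06), the muscle coactivator Myocd (-1.22) and the kinase gene Prkg1 (-0.97) did not pass either.

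Macrophage gene groups gave no call in the comparison of genotypes. The other macrophage markers had 3 of 20 genes tested with 0 called and a median log2 fold change of 0.27, against 0.04 over all 233 genes. Stab1, Lyz2 and Pf4 had 0.25, 0.27 and 0.28. The lysosome list had 4 of 23 genes tested with 0 called and a median of 0.45, with 0.60 for the protease gene Ctsb and 0.48 for the asparaginyl endopeptidase gene Lgmn. The list of estrogen-related receptors and oxidative metabolism had 6 of 29 genes tested with 0 called and a median of -0.32. The cardiomyocyte list had 13 of 16 genes tested with 1 called, Nppa, and a median of 0.28. The lists of complement and Fc receptor, cytokine, interferon and iron genes had 0 genes above the expression filter.

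With a lower filter of 15 UMIs over the 9 libraries, 3 of 3004 genes were called higher in KO P10 (0.0999%) and 0 lower (0%), and 185 (6.16%) had an unadjusted p under 0.05. Beside Nppa (log2 fold change 5.62), these were the skeletal actin gene Acta1 at 3.41 ± 0.66 (SE, edgeR adjusted p = 0.000381) and Nppb, the gene of brain natriuretic peptide, at 2.43 ± 0.54 (adjusted p = 0.00668). Acta1 gave 1, 21 and 12 UMIs in KO P10 and 0, 4 and 3 in control P10, so the groups overlapped. Nppb gave 6, 47 and 17 against 0, 18 and 14 and overlapped as well. Both were also higher in other nuclei, where Acta1 stood at 278, 1419 and 1219 CPM in KO P10 and 13.3, 119 and 73.5 CPM in control P10. With this filter the other macrophage markers had 13 genes tested, 9 negative and 0 called, with a median of -0.25. Medians were -0.46 for myeloid transcription factors, -0.32 for phagocytosis and efferocytosis genes and 0.36 for lysosome genes, with 0 called in each. Over all 3004 genes the median was -0.13.

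The comparison of control P10 with control P6, which follows the macrophage nuclei over the first days after birth, gave more calls. Genes high in macrophage nuclei relative to other nuclei, namely Maf, Stab1, Pf4, Cd84, Ctsc, Apoe and Dab2, were lower in control P10, and Pdlim5, Mlip, Kcnd2 and Cacna1c were among those higher. Of 233 genes, 20 rose (8.58%) and 16 fell (6.87%), and 74 (31.8%) had an unadjusted p under 0.05. Without 1 library the 36 calls became 9 (control P10 library 1), 73 (control P10 library 2), 1 (control P10 library 3), 19 (control P6 library 1), 1 (control P6 library 2) or 10 (control P6 library 3), and with 5 or more marker UMIs 3. The median log2 fold change over all genes was -0.06. With DESeq2 size factors in the same test, which shift that median by 0.15, 20 genes rose and 6 fell, so rises made up 76.9% of calls against 55.6%. With the filter of 15 UMIs, 57 of 3004 genes rose (1.9%) and 12 fell (0.399%), together 2.3%, with rises at 82.6% of calls. Under that filter the median of the 233 genes shifted by 0.63. The scaling factors of the main test (TMM) ran from 0.767 to 0.947 in control P6 and from 1.02 to 1.38 in control P10. The sizes of the changes and the split of rises and falls thus depend on the filter and scaling.

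Maf, which encodes a transcription factor of resident macrophages, lies on chromosome 8 at 115682942-115707794 on the minus strand (GRCm38). It gave 2, 24 and 13 UMIs in the macrophage nuclei of control P10 libraries 1, 2 and 3 and 20, 29 and 15 in control P6, or 107, 583 and 259 CPM against 1395, 1368 and 2313 CPM. The groups did not overlap, with means of 316 ± 243 and 1692 ± 538 CPM (SD, n = 3 each). Its log2 fold change was -2.67 ± 0.53 (SE, edgeR adjusted p = 0.00436). In other nuclei Maf went the other way, at 53.3, 45.8 and 40.2 CPM in control P10 and 20.1, 13.4 and 16.5 CPM in control P6. The call was lost without control P10 library 3 (adjusted p = 0.0722) and with no filter on low counts, where the log2 fold change was -1.57 (adjusted p = 0.508). KO P10 macrophage nuclei stood at 836, 579.6 and 426 CPM, and the difference of KO P10 from control P10 did not pass (0.98 ± 0.56, adjusted p = 0.717).

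Stab1 gave 107, 875 and 299 CPM in control P10 and 1465, 2406 and 1696 CPM in control P6, with no overlap and a log2 fold change of -2.47 ± 0.61 (SE, edgeR adjusted p = 0.0164). Cd84 gave 107, 534 and 99.7 CPM against 767, 660.4 and 925 CPM, again without overlap (-1.97 ± 0.67, adjusted p = 0.0497). Dab2, the endocytic adaptor, gave 586, 1336 and 558 CPM against 1814, 1368 and 2930 CPM (-1.64 ± 0.54, adjusted p = 0.0452), and its highest control P10 library lay just under its lowest control P6 library. Other nuclei held Stab1 at 26.7 to 45.5 CPM in control P10 and 45.5 to 50.3 CPM in control P6. These calls were lost in 5 of 20 alternatives for Stab1, 14 of 18 for Cd84 and 13 of 21 for Dab2, with adjusted p up to 0.586, 0.720 and 0.730 and log2 fold changes as small as -1.46, -0.92 and -0.52 with no filter on low counts.

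Among secreted and lysosomal products, Apoe fell with 266, 1190.4 and 738 CPM in control P10 and 1605, 3161 and 3855 CPM in control P6 (log2 fold change -2.31 ± 0.63 SE, edgeR adjusted p = 0.0276). The platelet factor 4 gene Pf4 gave 0, 656 and 119.6 CPM against 628, 943 and 1850.4 CPM, with 1 control P10 library inside the control P6 range (-2.27 ± 0.74, adjusted p = 0.0452). Ctsc gave 159.9, 389 and 319 CPM against 488, 943 and 771 CPM, with no overlap (-1.74 ± 0.58, adjusted p = 0.0462). The call was lost in 8 of 22 alternatives for Apoe, 12 of 19 for Pf4 and 13 of 16 for Ctsc, with adjusted p up to 0.720 and log2 fold changes as small as -1.20, -1.18 and -0.67 with no filter on low counts. Control P10 library 1 was the lowest of its group for Pf4, Ctsc and Apoe. Its macrophage nuclei held the other macrophage markers at 0.0799% of UMIs, against 0.491% and 0.239% in control P10 libraries 2 and 3 and 0.670%, 0.717% and 0.833% in control P6. The values of control P10 library 1 rest on 12 macrophage nuclei with 18763 UMIs, of which 5312 lay in a single nucleus.

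By group of genes, the other macrophage markers had 3 of 20 tested in the age comparison, of which 2 fell (Stab1 and Pf4) and Lyz2 did not pass (log2 fold change -1.54 ± 0.72 SE, edgeR adjusted p = 0.145), for a median of -2.27 against -0.06 over all genes. The lysosome list had 4 tested and 1 fall (Ctsc), with a median of -1.48. Ctsb (-1.41 ± 0.51, adjusted p = 0.0620) and Lgmn (-1.42, adjusted p = 0.142) did not pass. The myeloid transcription factors had 4 tested and 1 fall (Maf), with a median of -0.32, and Zeb2, a repressor found in many cell types, stood at -0.25. Of the lipid genes, Apoe fell while Cd36 (0.20) and Lpl (0.01) did not pass. The expression filter asks for enough UMIs in 3 libraries, so a gene can enter through the 1 group where it is high. The medians of the few macrophage genes tested can therefore lean towards falls. With the lower filter, 13 other macrophage markers were tested, 9 negative and 4 positive, with a median of -0.97. The lists were chosen with values of these nuclei in view, so their counts are a description.

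**Figure D3:**
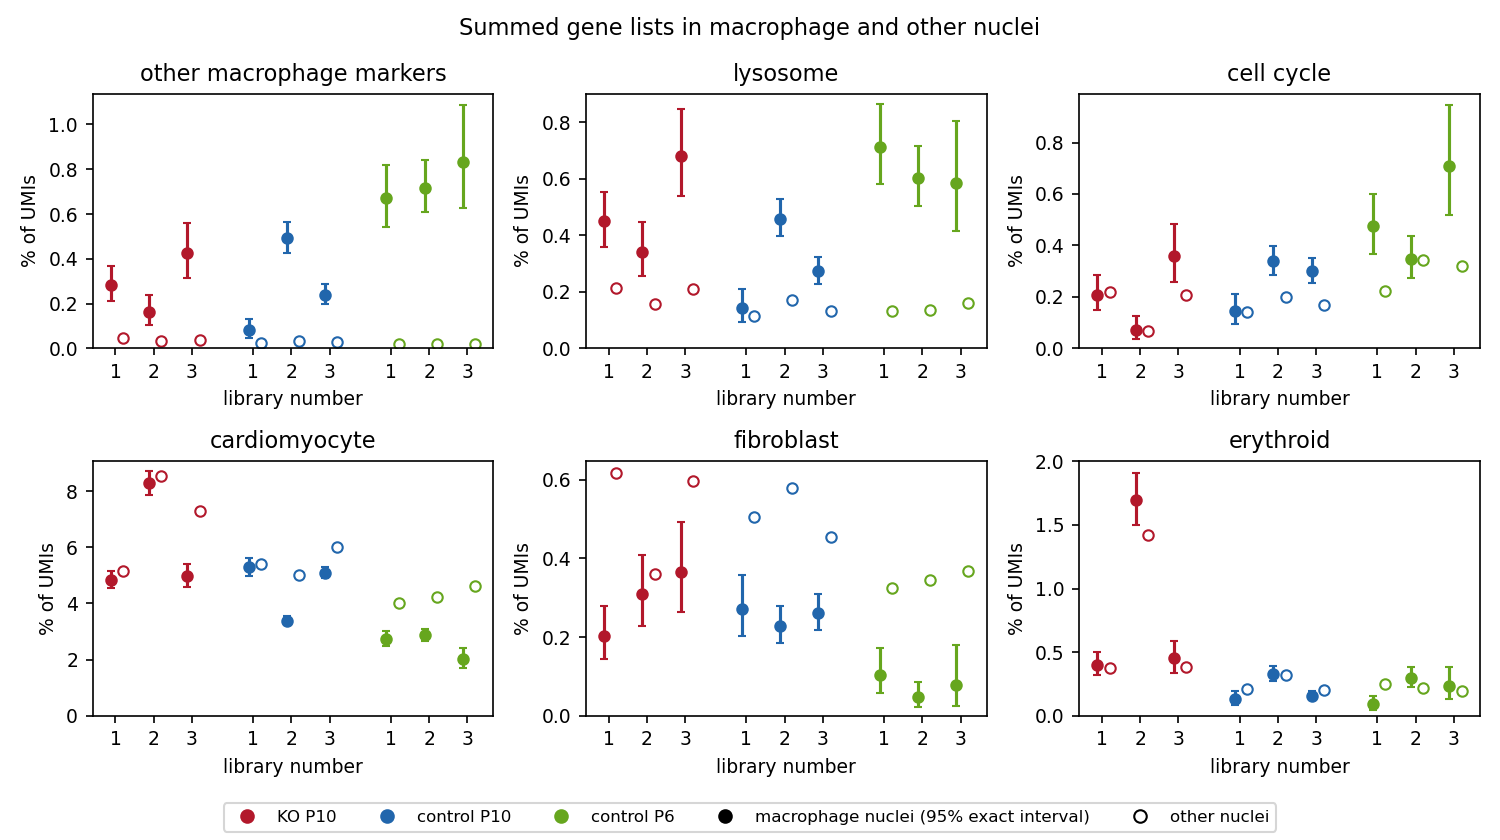
Percent of UMIs from 6 summed gene lists in macrophage nuclei (filled, with 95% exact intervals) and other nuclei (open) of each library, by group. Other macrophage markers reach 0.670% to 0.833% in control P6 and 0.0799% to 0.491% in control P10, while cardiomyocyte and fibroblast lists are lowest in control P6.

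The lower filter let more macrophage genes be measured in the age comparison. The complement gene C1qc gave 0, 9 and 7 UMIs in control P10 and 6, 15 and 7 in control P6 and fell (log2 fold change -2.08 ± 0.61 SE, edgeR adjusted p = 0.0342). The C5a receptor gene C5ar1 gave 0, 4 and 1 UMIs against 4, 6 and 5 and fell (-2.75, adjusted p = 0.0448), as did Csf2ra, a subunit of the GM-CSF receptor, with 0, 2 and 0 against 2, 7 and 4 (-3.62 ± 1.00, adjusted p = 0.0220). Mitf, a regulator of lysosome genes, rose with 7, 18 and 17 UMIs in control P10 and 1, 1 and 0 in control P6 (2.98 ± 0.89, adjusted p = 0.0431). Of the 17 lysosome genes then tested, 15 had a negative fold change and 0 passed, with a median of -0.97. The other macrophage markers had 13 tested, 9 negative and 2 falls, with a median of -0.97, and complement and Fc receptors had 7 tested, 6 negative and 2 falls, with a median of -0.85. Myeloid transcription factors had 11 tested, 8 positive, 1 rise (Mitf) and 1 fall (Maf), with a median of 0.37. Lipid handling genes had 7 tested, 5 positive and 0 called, with a median of 0.86. Over all 3004 genes the median was 0.27. Under this filter Maf (-2.05, adjusted p = 0.0170) and Stab1 (-1.90, adjusted p = 0.0301) still passed and Pf4 did not (-1.66, adjusted p = 0.0685).

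Smc4, a condensin subunit used in mitosis, gave 7, 14 and 12 UMIs in control P10 and 12, 21 and 8 in control P6, or 317 ± 69.7 against 1020.5 ± 199.9 CPM (SD, n = 3 each), and fell (log2 fold change -2.16 ± 0.48 SE, edgeR adjusted p = 0.0113). It was the single gene of the 30 in the cell cycle list to be tested, and with the filter of 15 UMIs it did not pass (-1.51 ± 0.55, adjusted p = 0.110), nor did any of the 13 list genes then tested (median -0.21). The cell cycle list made up 0.144%, 0.338% and 0.299% of macrophage UMIs in control P10 and 0.474%, 0.349% and 0.709% in control P6. Nuclei with 3 or more of its UMIs were 25.0% of KO P10, 34.4% of control P10 and 45.5% of control P6 macrophage nuclei, with 34.8% over all groups against 22.4% of other nuclei. By group, the other nuclei stood in the same order, at 18.8% in KO P10, 19.9% in control P10 and 29.8% in control P6. The poly(A)-binding protein gene Pabpc1 (-2.13 ± 0.50, adjusted p = 0.0130) and Acin1, which takes part in RNA splicing (-1.72 ± 0.49, adjusted p = 0.0305) fell. Other falls were Rsrp1, Srrm2, Dleu2 and Hnrnpa2b1.

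Xist, the RNA that silences an X chromosome in female cells, had the most negative log2 fold change with age (-4.38 ± 1.21 SE, edgeR adjusted p = 0.0276). It gave 22, 0 and 0 UMIs in the macrophage nuclei of control P10 and 32, 87 and 44 in control P6. Xist was thus at 0 in control P10 libraries 2 and 3 and high in control P10 library 1 and in all control P6 libraries, and the other nuclei showed the same pattern, with 1044, 0.984 and 0.522 CPM against 2025, 2652 and 2866 CPM. The age groups therefore differ in Xist as well as in age, apart from control P10 library 1, the 1 control P10 library with Xist. The part of Xist in the other age differences was not tested.

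The genes higher in control P10 than in control P6 include several known from heart muscle. Pdlim5, a Z-disc scaffold, gave 67, 39 and 72 UMIs in control P10 and 2, 2 and 0 in control P6, or 3571, 947 and 1436 CPM against 139.5, 94.3 and 0 CPM. The groups did not overlap, and the log2 fold change was 3.69 ± 0.74 (SE, edgeR adjusted p = 0.00436). In other nuclei Pdlim5 stood at 2699, 943 and 1066 CPM in control P10 and 672, 591 and 553 CPM in control P6. The macrophage nuclei thus stood level with or above the other nuclei in control P10 and below them in control P6.

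The calcium channel gene Cacna1c followed the same course, with 6715, 2454 and 4785 CPM in control P10 and 1046, 330.2 and 0 CPM in control P6 (log2 fold change 2.58 ± 0.67 SE, edgeR adjusted p = 0.0182). The potassium channel gene Kcnd2 gave 34, 32 and 74 UMIs against 3, 1 and 1 (2.84 ± 0.67, adjusted p = 0.0130), without overlap. The muscle gene Mlip (2.93), the muscarinic receptor Chrm2 (2.55), Esrrg (2.51), the GATA cofactor Zfpm2 (2.49), the protocadherin Pcdh7 (2.35), the growth hormone receptor Ghr (2.25), the nuclear receptor Rora (2.23), the phosphodiesterase Pde4b (2.21) and the titin splicing factor Rbm20 (2.13) also rose. Ttn itself rose by 1.35 ± 0.46 (adjusted p = 0.0497), with 17534, 6996 and 14455 CPM in control P10 and 2721, 4670.0 and 2776 CPM in control P6. In other nuclei Ttn stood at 16507, 9105 and 16148 CPM in control P10 and 5939, 7327 and 5311 CPM in control P6. Lama2, Fgf13, Erbb4, Akap6, Prkg1, Fhod3 and Mast4 made up the remaining rises. The cardiomyocyte list had 13 genes tested, 2 rises (Rbm20 and Ttn) and a median of -0.28. With the filter of 15 UMIs it had 15 tested, 13 positive, 1 rise (Rbm20) and a median of 0.36. The fibroblast list then had 8 tested, 8 positive, 1 rise (Lama2) and a median of 1.82. The endothelial list had 7 tested, 6 positive, 0 called and a median of 1.98, against 0.27 over all 3004 genes.

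**Figure D4:**
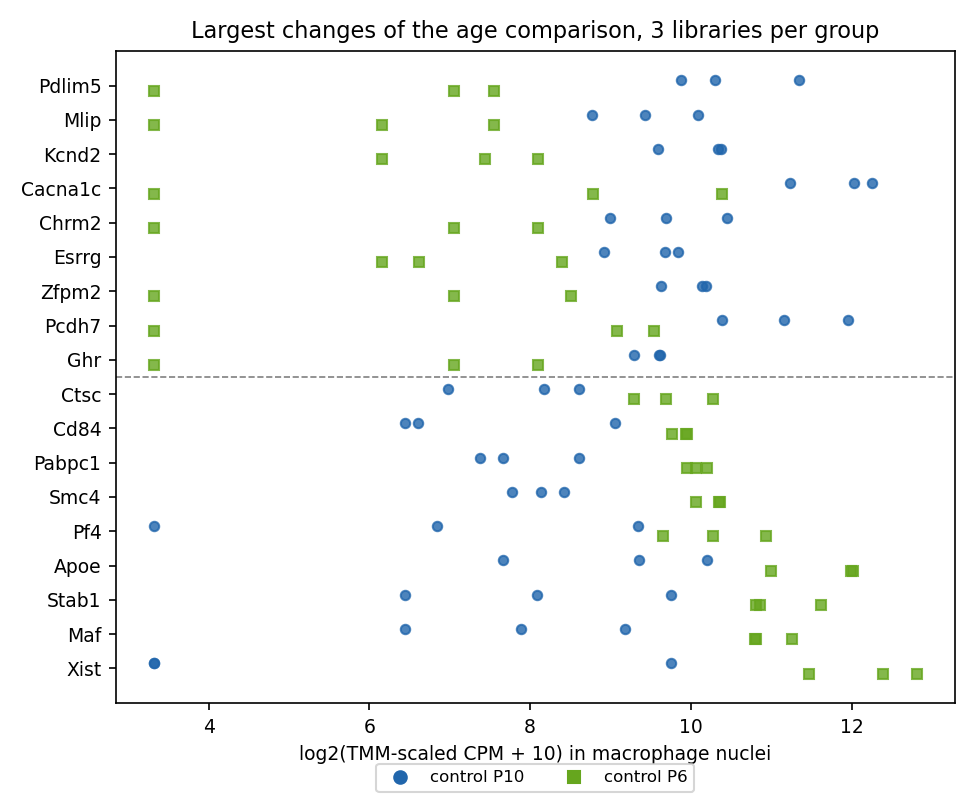
Level of the 9 genes most raised and the 9 most lowered in control P10 relative to control P6, in the macrophage nuclei of each library, as log2 of TMM-scaled CPM plus 10, so that 0 CPM plots at the left edge. Most circles (control P10) lie right of the squares (control P6) above the dashed line and left of them below it, with log2 fold changes from 3.69 for Pdlim5 to -4.38 for Xist.

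A test of whether the age effect in macrophage nuclei differs from that in the other nuclei of the same libraries called 4 of 11658 genes (0.0343%), with 677 (5.81%) at an unadjusted p under 0.05. The age effect was lower in macrophage nuclei for 3 genes (0.0257%) and higher for 1 (0.00858%). The 3 were Maf (log2 difference -3.07 ± 0.52 SE, edgeR adjusted p = 4.63e-05), C1qc (-3.29 ± 0.67, adjusted p = 0.00586) and Pf4 (-2.50 ± 0.55, adjusted p = 0.0158). In macrophage nuclei C1qc stood at 0, 219 and 139.6 CPM in control P10 and 419, 708 and 1079 CPM in control P6, while in other nuclei it stood at 13.9, 17.5 and 16.7 CPM and 3.52, 6.18 and 5.80 CPM. Pf4 likewise stood at 23.0, 33.0 and 30.3 CPM in the other nuclei of control P10 and 13.6, 13.05 and 10.7 CPM in those of control P6. So the 3 macrophage genes were lower in the macrophage nuclei of the older hearts and higher in their remaining nuclei. The remaining nuclei hold barcodes with 3 or more marker UMIs over the exclusion limit, 73 in control P10 and 6 in control P6. The 8 marker genes made up 0.0151% of the UMIs of remaining nuclei in control P10 and 0.0071% in control P6. The part of the selection in these differences was not tested. Pdlim5 had a higher age effect in macrophage nuclei (3.48 ± 0.75, adjusted p = 0.0154). Maf alone remained when control P10 library 1 or 3 or control P6 library 2 or 3 was left out.

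Several lists moved with these age differences. In macrophage nuclei the cardiomyocyte list made up 4.59% ± 1.04 of UMIs in control P10 and 2.55% ± 0.452 in control P6, and the fibroblast list 0.254% ± 0.0227 and 0.0763% ± 0.0287 (SD, n = 3 each). The endothelial list made up 0.112% ± 0.0473 in control P10 and 0.0386% ± 0.0237 in control P6. Ribosomal protein genes made up 0.408% ± 0.209 in control P10 and 1.05% ± 0.140 in control P6 macrophage nuclei, and 0.454% ± 0.182 and 1.09% ± 0.142 in the other nuclei (KO P10 macrophage nuclei 0.775% ± 0.0663, SD, n = 3 each). The age groups did not overlap in the ribosomal list, which was lowest in control P10 library 1 at 0.197%. With selection at 5 or more marker UMIs, an alternative chosen after seeing the data, none of the 4 differences passed (edgeR adjusted p = 0.0949 for Maf, 0.743 for C1qc and 0.912 for Pf4 and Pdlim5), while 91 nuclei were left. The part of these lists in the age differences was not tested.

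Promoter sequences are shown for Pf4 and Ctsc, genes that fell with age, because both hold a purine-rich GAGGAAGT motif, one form of the site bound by the myeloid ETS factor PU.1, the product of Spi1. The sequences are the 250 bases before the RefSeq transcript start (GRCm38.p6), 5′ to 3′ on the gene's strand, with the motif, here read as its reverse complement ACTTCCTC, in capitals. They span chr5:90772185-90772434 on the plus strand for Pf4 and chr7:88277835-88278084 on the plus strand for Ctsc.
Pf4: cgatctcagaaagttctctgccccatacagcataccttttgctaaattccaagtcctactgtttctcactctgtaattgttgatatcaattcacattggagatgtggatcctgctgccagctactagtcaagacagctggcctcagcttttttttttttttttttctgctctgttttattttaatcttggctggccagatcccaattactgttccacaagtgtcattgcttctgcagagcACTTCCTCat
Ctsc: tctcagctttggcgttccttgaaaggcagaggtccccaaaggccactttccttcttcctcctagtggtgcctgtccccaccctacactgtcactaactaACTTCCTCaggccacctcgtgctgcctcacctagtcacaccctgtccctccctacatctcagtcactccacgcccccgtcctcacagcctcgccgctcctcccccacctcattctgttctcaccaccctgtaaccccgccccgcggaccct
The motif was searched on both strands. Of 13 genes looked up, 9 were in the table, with 15 windows, and C1qc, Ctsc and Pf4 each had 1 window with it, at 195, 151 and 10 bases before the start. Over all 32851 RefSeq windows of the same length 802 held it (2.44%). The match is a description of letters, and neither binding nor a cause was measured.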

How the data were processed

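Nuclear RNA of 9 ventricle libraries was measured by single-nucleus Drop-seq. The authors deposited, per library, a table of UMI counts per gene and barcode over exons and introns. STAR 2.5.2a and mm10 are named per the submitters' processing notes, and other steps are not given in the sources used here. The counts are whole numbers and not normalized. Strand use in counting is not stated, so overlapping genes may share reads. Counts were summed over macrophage nuclei per library without mitochondrial genes and tested with edgeR 4.0.16 (quasi-likelihood, TMM, filterByExpr, Benjamini-Hochberg adjusted p under 0.05) in R 4.3.3, in 1 fit over the 9 libraries. The genes of the selection were not tested. The difference from other nuclei used 18 sums with library as a block. Shares were compared with exact permutation tests over libraries. CPM in the text are not TMM-scaled. Depth per library, as total UMIs, and the sums of macrophage nuclei are given with the results, and they limit precision to genes with several UMIs per library. DESeq2 1.42.0, other filters, thinning, stricter selection, doublet removal by Scrublet score (scanpy 1.11.5) and leaving out each library were tried. Scripts were tested on simulated counts. The members and lists were chosen with earlier results of these data known. Named genes were up to 12 per direction by fold among those past the threshold, otherwise the 5 with the smallest p, and up to 4 per list. Further genes, such as those of the lower filter, were chosen after their values were seen. Gene positions are from GENCODE vM21. Some genes are not reported here.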

Additional observations from a re-analysis of the deposited data

Results flagged for a closer look

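For 4 genes the difference between control P10 and control P6 in macrophage nuclei was unlike that in the other nuclei of the same libraries, by the test of the difference itself (edgeR quasi-likelihood, adjusted over 11658 genes). The log2 difference was -3.29 for the complement gene C1qc (adjusted p = 0.00586), -3.07 for the regulator Maf (adjusted p = 4.63e-05), -2.50 for the chemokine gene Pf4 (adjusted p = 0.0158) and 3.48 for the Z-disc gene Pdlim5 (adjusted p = 0.0154). Maf remained past the threshold without any single library. C1qc and Pf4 lost the call without control P10 library 1 or 3 and without control P6 library 2 or 3, and Pdlim5 lost it without any 1 of the 6 control libraries. The other nuclei hold barcodes with 3 or more marker UMIs over the exclusion limit, 73 in control P10 and 6 in control P6. Their part in these differences was not tested.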

How the results depend on the processing

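Genes called between KO P10 and control P10 numbered 1, against 0 by DESeq2, 3 with at least 15 UMIs, and 0 to 7 without 1 library each. For control P10 against control P6 the 36 calls became 69 of 3004 genes with at least 15 UMIs, 3 of 49 with at least 5 marker UMIs, 3 of 93 with at most 1 exclusion UMI, 19 of 93 with Malat1 of at least 5%, 6 of 90 with at least 800 UMIs and 16 with candidate doublets left out, and 1 to 73 without 1 library each. Stricter selection left fewer nuclei and fewer genes to test, and the cause of the other shifts was not tested. DESeq2 size factors (26), DESeq2 (28), no filter (38), only the groups compared (31), at least 2 different marker genes (25) and shared barcodes kept (36) stayed within 1.5 times in number. The genes called were not all the same. In that order, 26, 24, 20, 29, 24 and 36 of the main 36 calls were kept. All of the 36 genes that could be tested kept their direction in each of these. The difference in age effect between macrophage and other nuclei had 4 calls, against 8 with DESeq2 size factors, 0 with at least 5 marker UMIs, chosen after seeing the data, and 1 to 4 without 1 library each. The difference in genotype effect had 0 calls under each setting tried.

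The difference in share of KO P10 from control P10 ran from -0.486 to -0.277 percentage points without 1 library each and from -0.477 to -0.0759 under the other settings. That of control P10 from control P6 ran from 0.164 to 0.473 and from 0.0541 to 0.400. Permutation p was between 0.1 and 0.9, and none turned round. Among named genes 0 turned round, 118 of the results without 1 library and 78 of the others fell short of the threshold, and 3 newly passed it. With replicate number as a block the calls were 2 for genotype and 41 for age. The numbers share no stated source, and same-numbered libraries had correlations of 0.478, 0.0805 and 0.0623 between KO P10 and control P10 and of 0.0975, -0.125 and 0.0393 between control P10 and control P6, so they were not treated as pairs.

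With 6485 to 50156 UMIs per library, most macrophage genes could not be tested. Sex, tissue freezing and animal could not be set against the groups.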
